A study of Mus musculus with 4 samples.

Results

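In Hnrnpa2b1-KO MC38 tumours, 9 genes stood at higher levels in T and NK cells than in WT tumours: Rora, Il7r, Kdm6b, Kdm2b, Dennd4a, Il21r, Dgat1, Gramd3 and Gpcpd1. They are 9 of the 55450 features measured, and each symbol matched 1 row. The members were picked because their summed counts in T and NK cells were higher in KO tumours. That difference, in the class as a whole and in its subsets, is therefore given as a description, with a fold change and its standard error (SE) and no p-value. Tests are given for what the choice did not use, namely the other cell classes of the same tumours and differences in effect between subsets.

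The samples were 4 subcutaneous tumours in C57BL/6J mice aged 8 weeks, grown in the left flank from injected cells of MC38, a colon carcinoma line of the mouse. In 2 tumours the MC38 cells were WT and in 2 they were Hnrnpa2b1 KO. The product of Hnrnpa2b1 is an hnRNP that binds RNA. The labels place the loss in the injected cells, so T and NK cells came from the host in both groups. Whether the KO line is 1 clone is not given in the sources used here. The tumours were dissociated to single cells with no sort stated, and unique molecular identifiers (UMIs, 1 per captured RNA molecule) were counted in droplets. The labels do not say what the tumours of a group share, so errors and p-values measure only the spread between these tumours.

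Il7r and Il21r encode cytokine receptor chains that pair with the common gamma chain and signal through JAK kinases and STAT factors. Il7r carries the survival signal of naive and memory T cells, and Il21r binds a helper T cell cytokine. Rora encodes a nuclear receptor that acts in the circadian clock and in the development of innate lymphoid cells. Kdm6b removes the repressive histone methyl mark set by Polycomb complexes, and Kdm2b brings a Polycomb complex to CpG-rich promoters, so the products of these genes act on the same system from opposite sides. Dgat1 catalyses the last step of triglyceride synthesis, and Gpcpd1 cleaves glycerophosphocholine, a breakdown product of membrane lipid. Gramd3 encodes a membrane-associated protein with a GRAM domain, and Dennd4a an exchange factor for Rab10, a GTPase of vesicle traffic.

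After filtering, the libraries held 8648 to 11344 cells and 114136609 to 153162562 UMIs, and any 2 libraries shared 21 to 41 barcodes. T and NK cells numbered 676 and 657 in the first and second WT tumour, and 2491 and 2595 in the KO tumours. Their median depth was 1986, 2060, 3897 and 2827 UMIs per cell in the same order, so KO cells were deeper. WT tumour 1 stood apart, since 205 of its 676 T and NK cells fell in a sub-cluster led by Sox9 and Tnnt2, genes of other cells, against 4 to 8 cells in each other tumour. An estimated 20.2% of the UMIs of T and NK cells in WT tumour 1 were free RNA from other cells, against 6.27% to 8.17% in the other tumours. The estimate rests on 30 genes chosen as low in immune cells of the KO tumours. That choice holds the KO estimates down, so nothing is read from KO against WT. Values with free RNA subtracted carry the same limit. Levels are in CPM, the UMIs of a gene per 1000000 UMIs of the class in a tumour. Hnrnpa2b1 itself was at 549 and 540.5 CPM in WT and 379 and 320 CPM in KO tumours in Xist-low cells, a class nearly without Xist and Ptprc that takes the place of tumour cells here. In T and NK cells it was at 618 and 572 CPM in WT and 592 and 519 CPM in KO tumours.

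In GRCm38, Rora (ENSMUSG00000032238) spans chr9:68653786-69388246 on the plus strand, and Dennd4a (ENSMUSG00000053641) lies on the same chromosome and strand at chr9:64811340-64919667. Il7r (ENSMUSG00000003882) spans chr15:9505788-9530176 and Dgat1 (ENSMUSG00000022555) chr15:76502015-76511953, both on the minus strand. Kdm6b (ENSMUSG00000018476) spans chr11:69398508-69413675 and Kdm2b (ENSMUSG00000029475) chr5:122870665-122989823, both on the minus strand. Il21r (ENSMUSG00000030745) spans chr7:125603429-125633570 on the plus strand. Gpcpd1 (ENSMUSG00000027346) spans chr2:132529082-132587729 on the minus strand. Genes annotated on the opposite strand overlap Rora (Gm15511), Kdm6b (Kdm6bos), Kdm2b (Rnf34 and A930024E05Rik) and Dennd4a (Gm24347), and Gm43411 and Gm44574 overlap Kdm2b on its own strand. Whether counting used strand is not given in the sources, and counts of these genes are uncertain to that extent.

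The 250 bases before the start sites of the members were searched for motifs in the RefSeq promoter table of GRCm38.p6, which held 5 of the 9 members. These were Il7r, Il21r, Rora, Dennd4a and Kdm2b, with 8 windows in all, 4 of them of Kdm2b. The windows below are shown 5′ to 3′ on the strand of the gene, since they hold most of the matches outside Kdm2b, and capitals mark motif matches on either strand. For Il21r the window is chr7:125603179-125603428 (plus), for Dennd4a chr9:64810761-64811010 (plus), for Rora chr9:68653536-68653785 (plus) and for Il7r the 164 bases nearest the start are shown, chr15:9529877-9530040 (minus), which lie inside the GENCODE span of the gene.
Il21r: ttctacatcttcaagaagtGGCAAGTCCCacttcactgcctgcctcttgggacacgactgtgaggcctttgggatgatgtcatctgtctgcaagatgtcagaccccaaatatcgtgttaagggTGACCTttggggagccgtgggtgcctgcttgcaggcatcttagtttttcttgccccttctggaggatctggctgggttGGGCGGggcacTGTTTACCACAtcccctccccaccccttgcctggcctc
Dennd4a: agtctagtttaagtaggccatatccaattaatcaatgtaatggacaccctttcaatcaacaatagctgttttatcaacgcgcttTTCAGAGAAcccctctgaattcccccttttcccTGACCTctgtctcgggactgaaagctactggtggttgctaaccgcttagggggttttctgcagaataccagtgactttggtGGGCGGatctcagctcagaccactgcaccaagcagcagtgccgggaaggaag
Rora: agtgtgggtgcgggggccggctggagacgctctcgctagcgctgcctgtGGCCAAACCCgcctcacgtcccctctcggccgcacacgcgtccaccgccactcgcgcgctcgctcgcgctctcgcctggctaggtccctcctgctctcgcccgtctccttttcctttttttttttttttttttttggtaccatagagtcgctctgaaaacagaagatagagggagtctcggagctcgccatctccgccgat
Il7r: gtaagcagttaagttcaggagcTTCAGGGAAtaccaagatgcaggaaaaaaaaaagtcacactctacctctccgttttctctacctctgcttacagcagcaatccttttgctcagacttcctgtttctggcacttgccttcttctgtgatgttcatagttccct
Il21r and Dennd4a each held the nuclear receptor half-site AGGTCA, printed as its reverse complement TGACCT, beginning 127 and 133 bases before the start. RORalpha binds half-sites of this kind that follow an AT-rich stretch. In neither printed window were the bases on that side of the half-site mainly A and T. This motif is in 14% of all 32851 windows of that length. Il7r and Dennd4a held a STAT motif (TTCNNNGAA), beginning 142 and 166 bases before the start and present in 7.02% of windows. Distances are to the RefSeq start, which for Dennd4a lies upstream of the GENCODE start at chr9:64811340. An NF-kappaB motif (GGG and CC with 5 bases between, in 45.8% of windows) stood in Il21r, Rora and Kdm2b. The RUNX motif TGTGGT (14%) and the FOXO motif GTAAACA (3.17%) stood in Il21r and Kdm2b, and overlap each other in Il21r. GC boxes (GGGCGG, 32.7%) were in Dennd4a, Il21r and Kdm2b. None of the 8 windows held the cyclic AMP element TGACGTCA, present in 1.55% of windows, or the AP-1 letters TGANTCA, present in 6.75%. The ETS letters CCGGAAGT (2.88%) and the glucocorticoid element (0.387%) were likewise in none. The same holds for NFAT, searched as TGGAAA and found in 18.6% of windows, and for TCF, searched as CTTTGA and found in 13.8%. The E-box CACGTG, in 6.02% of windows, and the TATA letters TATAAA, in 12.4%, completed the 14 motifs and were also in none of the 8. Both strands were searched, and no motif was shared by all 5 genes. The GC content of the windows ran from 44.0% to 80.8%, against a median of 52.4% over all windows.

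In T and NK cells, each of the 9 members was higher in both KO tumours than in both WT tumours. This held for 33.9% of the 12545 genes tested there, and nothing is read from the comparison, since the members were chosen on it. By edgeR at an adjusted threshold of 0.05, 1.75% of these genes were called higher and 3.08% in either direction. The median log2 fold change (KO minus WT) of the members was 1.39, and that of all genes was -0.0035.

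Of the cytokine receptors, Il7r stood at 495 and 472 CPM in WT and 637 and 665 CPM in KO tumours, a log2 fold change of 0.34 (SE 0.16). Il21r was at 67.2 and 67.9 CPM in WT and 181 and 196 CPM in KO tumours, a log2 fold change of 1.39 (SE 0.17). The groups did not overlap for either receptor, and the difference of Il7r was the smallest of the 9. Rora, the nuclear receptor, was at 133 and 145 CPM in WT and 408 and 423 CPM in KO tumours (log2 fold change 1.48, SE 0.17).

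The chromatin genes had the highest fold changes, which lay within 1 SE of that of Rora. Kdm6b, the demethylase, was at 82.6 and 77.7 CPM in WT and 252 and 246 CPM in KO tumours, a log2 fold change of 1.54 (SE 0.16). Kdm2b, the Polycomb recruiter, was at 119 and 129.7 CPM in WT and 372 and 398 CPM in KO tumours, a log2 fold change of 1.53 (SE 0.17). The mean KO level was 3.10 times the mean WT level for Kdm6b and 3.09 times for Kdm2b, and neither gene overlapped between groups.

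Among the lipid enzymes, Dgat1 was at 120.5 and 133 CPM in WT and 346 and 344 CPM in KO tumours (log2 fold change 1.35, SE 0.17). Gpcpd1 was at 25.8 and 25.1 CPM in WT and 49.9 and 64.5 CPM in KO tumours (log2 fold change 1.08, SE 0.22). For Gpcpd1 the KO tumours were further apart from each other than the WT tumours. Dennd4a, of vesicle traffic, was at 440.2 and 422 CPM in WT and 1191 and 1134 CPM in KO tumours (log2 fold change 1.34, SE 0.16). Gramd3 (ENSMUSG00000001700, chr18:56400337-56503792, plus strand) was at 105 and 147 CPM in WT and 356 and 354 CPM in KO tumours (log2 fold change 1.39, SE 0.22). The WT tumours differed more from each other in Gramd3 than in the other members, and both stayed well below the KO tumours.

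Under 17 other ways of processing T and NK cells, every member kept a positive fold change. The ranges were narrow for Kdm6b (1.45 to 1.72) and Rora (1.32 to 1.68) and wider for Gramd3 (1.07 to 1.80), Gpcpd1 (0.85 to 1.40) and Il7r (0.16 to 0.71). The value of Il7r was lowest after subtraction of free RNA and highest with cells brought to 2000 UMIs. That depth left out 342 of 676 and 314 of 657 WT cells, against 312 of 2491 and 551 of 2595 KO cells. Values at 2000 UMIs thus also differ in which cells were kept. Without the edgeR scaling of libraries (TMM factors), the median of all genes moved by 0.08 on the log2 scale, and genes called higher went from 220 to 261 and genes called lower from 167 to 99.

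Markers of other cells, and those of T and NK cells themselves, also differed between the groups. Over 13 mononuclear phagocyte markers the summed level in T and NK cells was 1231 and 1235 CPM in WT and 2062 and 1904 CPM in KO tumours, and 2 of the 13 rose. T cell markers summed to 4170 and 4283 CPM in WT and 6303 and 6291 CPM in KO tumours, of which 1 of 11 rose, and NK markers to 3494 and 3632 against 2840.0 and 2912 CPM. Within subsets, the mononuclear phagocyte markers were at 1163 and 1335 against 2121 and 1901 CPM in CD8 T cells. There 0 of 13 were called, but so were 0 of all 10497 genes tested, so that count shows nothing about these markers. In CD4 T cells they were at 710.5 and 828 against 1722 and 1589 CPM, and 1 of 11 rose, beside 0.225% of all genes. The part of these in the members' levels was not tested.

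T and NK cells were divided into subsets by markers, and names mean cells like that type. CD8 T cells made up 14.3% and 30.6% of this population with WT cells injected, tumours 1 and 2, and 41.2% and 37.2% with KO cells injected. Within CD8 T cells, the sub-cluster led by Pclaf, Nusap1 and Mki67, genes of dividing cells, held 50 of 97 cells in WT tumour 1, 19 of 201 in WT tumour 2, 156 of 1026 in KO tumour 1 and 133 of 966 in KO tumour 2. The CD8 sub-cluster led by Ccl3 held 15, 55, 476 and 508 cells in the same order, and that led by Ifit1bl1, Ifit3 and Gzmk held 32, 127, 394 and 325, so the largest CD8 sub-cluster was not the same in each tumour. CD4 T cells other than regulatory were 6.07%, 15.5%, 17.6% and 18.3% in the same order, and regulatory T cells 16.1%, 7.15%, 6.50% and 6.28%. Gamma-delta T cells held 3.81% to 7.84% and NK cells 18.7% to 23.7% of each tumour's T and NK cells. The rest, 11.9% to 32.0%, could not be named. Under 50 cells were available for CD4 T cells in WT tumour 1 (41), and for regulatory and gamma-delta T cells in WT tumour 2 (47 each).

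The members were higher in KO tumours in each subset, with 1 exception. All 9 were above both WT tumours in CD8 T, CD4 T, regulatory T and NK cells, and 8 in gamma-delta T cells, where Gramd3 overlapped. The same placing held for 32.2% of all genes tested in CD8 T, 31.1% in CD4 T, 26.8% in regulatory T, 34.3% in NK and 27.5% in gamma-delta T cells. The median log2 fold change of the members tested was 1.49 in CD8 T, 1.20 in CD4 T, 1.27 in regulatory T, 1.52 in gamma-delta T and 1.5 in NK cells. These placings and medians were fixed in part by the choice of the members, and nothing is read from them.

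**Figure D1:**
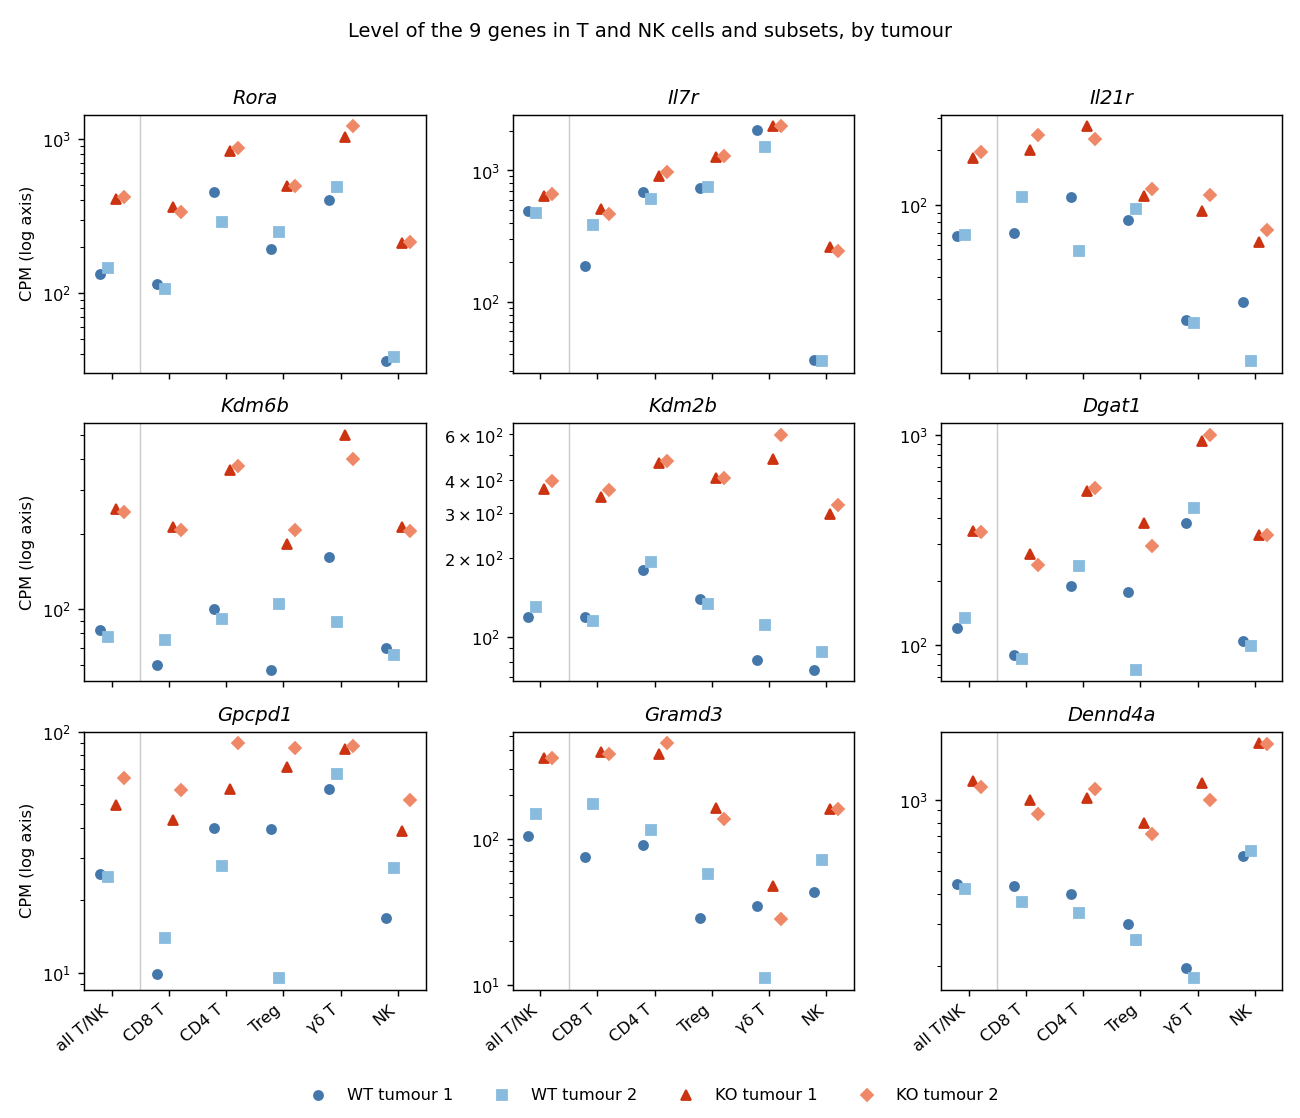
Level of each of the 9 genes in CPM (log axis, 1 panel per gene) in all T and NK cells and in 5 subsets, with 1 point per tumour (2 WT and 2 KO; Treg, regulatory T; γδ T, gamma-delta T). KO points lie above WT points in each subset except for Gramd3 in gamma-delta T cells, and the WT points of Il7r and Rora are lowest in NK cells.

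The level of Il7r varied widely between subsets. It was highest in gamma-delta T cells, at 2034 and 1502 CPM in WT and 2168 and 2165 CPM in KO tumours (log2 fold change 0.24, between 0.06 and 0.50 over alternatives). In regulatory T cells it was at 730.4 and 752 CPM in WT and 1266 and 1296 CPM in KO tumours, and in other CD4 T cells at 690.5 and 606 against 902 and 971 CPM. The WT and KO values of these CD4 subsets differed by 0.70 and 0.46 on the log2 scale. The latter was 0.27 at 1000 and 0.85 at 2000 UMIs per cell. At 2000 UMIs 17 of 41 and 40 of 102 WT cells of that subset were left out, against 59 of 438 and 96 of 475 KO cells.

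CD8 T cells held 186 and 386 CPM of Il7r in WT and 512 and 467 CPM in KO tumours. Here the WT tumours were far apart, and the log2 fold change of 0.63 became 0.14 without WT tumour 1 and 1.43 without WT tumour 2. In NK cells Il7r was lowest, at 36.1 and 35.5 CPM in WT (15 and 13 UMIs) and 263 and 244 CPM in KO tumours (log2 fold change 2.69, SE 0.25). The order of WT levels, with gamma-delta T cells highest and NK cells lowest, was without overlap, and the CD4 subsets did not overlap each other in WT although regulatory T cells were only slightly higher.

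Rora was also lowest in NK cells. It was at 405 and 490 CPM in WT gamma-delta T cells and 1035 and 1211 CPM in KO ones, and at 450.3 and 289 against 839 and 874 CPM in CD4 T cells. Regulatory T cells held 193 and 247 CPM in WT and 493 and 492 CPM in KO tumours. The WT values of gamma-delta and CD4 T cells overlapped, and the remaining neighbours in the order did not. In CD8 T cells Rora was at 114 and 106 CPM in WT and 360 and 334 CPM in KO tumours, and in NK cells at 36.1 and 38.2 CPM in WT and 211 and 214 CPM in KO tumours (log2 fold change 2.38, SE 0.26).

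Il21r, a receptor chain of the helper T cell cytokine, was at 69.6 and 110 CPM in WT and 201 and 243 CPM in KO CD8 T cells, and at 110 and 55.5 against 271 and 232 CPM in CD4 T cells. In regulatory T cells the difference was small, from 82.3 and 95.2 to 111 and 122 CPM, and the log2 fold change of 0.36 turned to -0.13 with cells brought to 2000 UMIs. That depth left out 57 of 109 and 23 of 47 WT regulatory T cells, against 42 of 162 and 66 of 163 KO ones. In NK cells Il21r was at 28.9 and 13.7 CPM in WT and 62.2 and 72.1 CPM in KO tumours. Gamma-delta T cells gave 91.9 and 112 CPM in KO tumours, with 2 UMIs in each WT tumour.

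Kdm6b and Kdm2b had log2 fold changes from 1.20 (Kdm2b in CD4 T cells, 1.08 without WT tumour 1) to 2.42. For Kdm6b in regulatory T cells the value of 1.37 became 0.75 without WT tumour 1 and 1.77 without WT tumour 2. Kdm6b was at 59.6 and 75 CPM in WT and 214 and 207 CPM in KO CD8 T cells, and at 69.8 and 65.5 against 214 and 207 CPM in NK cells. In CD4 T cells it went from 100.1 and 91.2 to 361 and 376 CPM, and in regulatory T cells from 57.3 and 105 to 183 and 208 CPM. Kdm2b was at 119 and 115 CPM in WT and 344 and 367 CPM in KO CD8 T cells, and at 74.7 and 87.3 against 296 and 320.2 CPM in NK cells. In gamma-delta T cells Kdm2b was at 80.9 and 111 CPM in WT and 483 and 598 CPM in KO tumours (log2 fold change 2.42).

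Dennd4a was highest in NK cells, at 578 and 609 CPM in WT and 1721 and 1709 CPM in KO tumours (log2 fold change 1.39). CD8 T cells had 432 and 373 CPM in WT and 996 and 867 CPM in KO tumours, and gamma-delta T cells had 196 and 178 against 1177 and 999.9 CPM, a log2 fold change of 2.47. KO values of Dennd4a thus lay between 716 and 1721 CPM over the 5 subsets, and WT values between 178 and 609 CPM.

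Dgat1 was highest in gamma-delta T cells (381 and 445 CPM in WT, 936 and 997 CPM in KO tumours) and next in CD4 T cells (190.1 and 238 CPM in WT, 536 and 559 CPM in KO). In NK cells it was at 104 and 98.2 CPM in WT and 334 and 331 CPM in KO tumours (log2 fold change 1.58). CD8 T cells had 89.5 and 85.5 CPM in WT and 270.1 and 240.5 CPM in KO tumours. Gramd3 was at 74.6 and 171 CPM in WT and 390.3 and 381 CPM in KO CD8 T cells, a log2 fold change of 1.49 that became 0.97 without WT tumour 1 and 2.41 without WT tumour 2. In gamma-delta T cells it overlapped between groups, with 34.7 and 11.1 CPM in WT and 47.6 and 28.1 CPM in KO tumours. Gpcpd1 was at 9.94 and 14 CPM in WT and 43.2 and 57.5 CPM in KO CD8 T cells (log2 fold change 1.92), from 4 and 8 UMIs in the WT tumours. In gamma-delta T cells its log2 fold change was 0.40, from 5 and 6 WT UMIs, and became 0.16 without WT tumour 1 and 0.72 without WT tumour 2.

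The effect of the KO on Il7r differed between subsets by the edgeR interaction test, with tumour as a block. It was smaller in CD8 T than in NK cells by 1.97 on the log2 scale (SE 0.27, adjusted p = 9.09e-06 over 9588 genes, of which 0.688% were called). It was smaller in CD4 T than in NK cells by 2.23 (SE 0.29, adjusted p = 1.00e-06; 0.190% of 8967 genes called). For Rora the difference between CD4 T and NK cells was -1.22 (SE 0.31, adjusted p = 0.0908, and 0.0284 without TMM factors), and between CD8 T and NK cells -0.83 (SE 0.30, adjusted p = 0.316). None of the other members had a difference past the threshold, the lowest adjusted p being 0.605 (Gpcpd1, CD8 T minus NK, 1.07, SE 0.56). In simulated counts the CD8 T minus NK test found 3% of 2-fold and 48.5% of 3-fold differences. The absence of a call therefore does not show equal effects, and the other pairs were not simulated. Between CD8 T and CD4 T cells no member passed, and 0.179% of genes were called.

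NK cells fell into 2 main sub-clusters, and the Il7r and Rora levels differed between them. In the sub-cluster led by Klra4, Klra8, Gzma and Eomes, genes of mature cytotoxic NK cells, Il7r was at 35.8 and 15.8 CPM in WT and 75 and 73.3 CPM in KO tumours. In the sub-cluster led by Gzmc, Gzmf, Klrb1b and Kit it was at 36.4 and 56.7 CPM in WT and 357 and 355 CPM in KO tumours. Rora was at 10.2 and 21.0 against 96.5 and 119 CPM in the first, and 59.1 and 56.7 against 269 and 276 CPM in the second.

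A finer clustering set apart a small group led by Kit and Klrb1b. It held 1 of 160 and 4 of 124 NK cells of the WT group (0.625% and 3.23%) and 95 of 474 and 71 of 486 of the KO group (20% and 14.6%). In KO tumours these cells had 1059 and 1205 CPM of Il7r, 508 and 588 CPM of Rora and 1997 and 1895 CPM of Dennd4a. Without them, Il7r in NK cells was at 33.9 and 11.3 CPM in WT and 105 and 109 CPM in KO tumours (log2 fold change 2.08, SE 0.33), and Rora at 33.9 and 22.5 against 152 and 162 CPM (2.35, SE 0.28).

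The other 7 members had log2 fold changes between 0.87 and 1.84 in NK cells without this group. The interaction of Il7r then lost its call but stayed negative, at -1.36 for CD8 T minus NK (adjusted p = 0.198) and -1.56 for CD4 T minus NK (adjusted p = 0.120). Each held under the other 10 of 11 alternatives. Summed T cell markers in NK cells were 1548 and 1539 CPM in WT and 1609 and 1769 CPM in KO tumours, and 2 of 9 tested fell. CD8 T markers summed to 544 and 723 against 446 and 493 CPM, of which 2 of 5 fell, and regulatory T markers to 718 and 731 against 993 and 933 CPM, of which 3 of 5 rose. Mononuclear phagocyte markers were at 1462 and 1231 against 1976 and 1846 CPM, of which 4 of 11 rose. Of all genes tested in NK cells, 3.84% rose and 3.35% fell. The T cell and CD8 T marker lists share genes, so their counts are not separate. The part of these marker signals in the NK values was not tested.

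**Figure D2:**
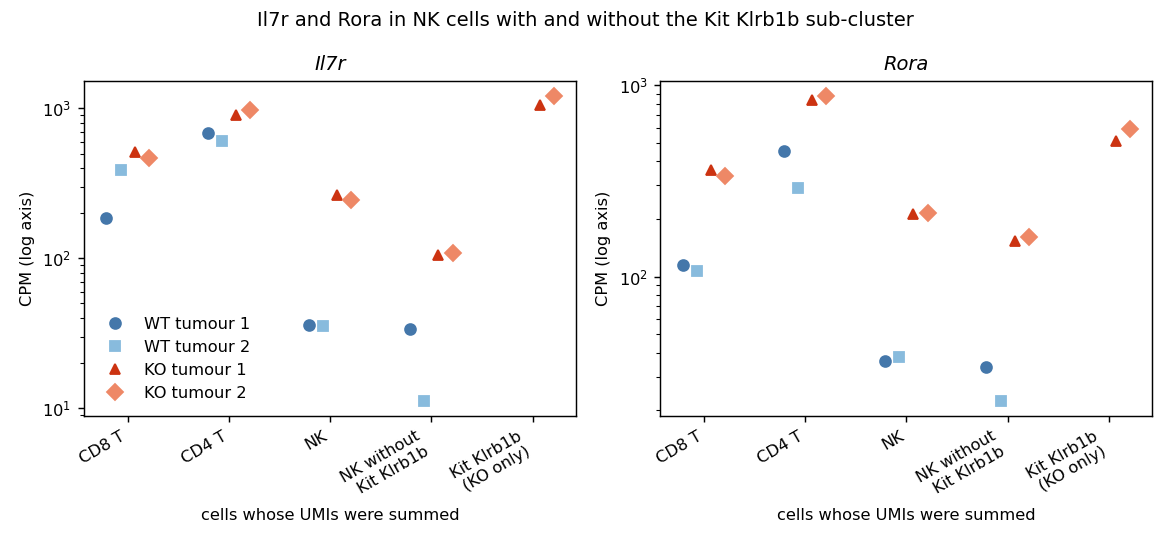
Il7r and Rora in CPM (log axis), with 1 point per tumour, in CD8 T, CD4 T and NK cells, in NK cells without the group led by Kit and Klrb1b, and in that group, shown for KO tumours only because WT tumours held 1 and 4 such cells. Without the group Il7r stood at 105 and 109 CPM in KO and at 33.9 and 11.3 CPM in WT NK cells.

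At equal depth the pattern was the same. Every cell was thinned to 1000 UMIs, which left out 23 and 68 T and NK cells of the WT tumours and 42 and 81 of the KO tumours. The log2 fold changes in T and NK cells were then 1.38 for Rora, 0.31 for Il7r, 1.69 for Kdm6b, 1.67 for Kdm2b, 1.42 for Dennd4a, 1.39 for Il21r, 1.42 for Dgat1, 1.43 for Gramd3 and 0.85 for Gpcpd1.

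More cells held the members, as well as more UMIs. Dennd4a was found in 32.3% and 32.8% of thinned T and NK cells in WT and 63.6% and 62.3% in KO tumours, and before thinning in 54.1% and 51.6% against 90.5% and 87.2%. Kdm2b was found in 11.2% of cells in each WT tumour and in 28.6% and 31.2% in the KO tumours (22.8%, 22.7%, 63.9% and 59.0% before thinning). Kdm6b went from 7.81% and 7.64% to 22.1% and 21.9% of thinned cells, and from 17.9% and 15.5% to 51.5% and 46.4% of all cells. The gap between groups was thus smaller in percentage points at equal depth, and was present in each comparison of a KO with a WT tumour.

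The share for Rora was 12.7% and 14.1% in WT and 28.5% and 29.5% in KO tumours after thinning (22.8%, 23.6%, 55.8% and 51.4% before). For Dgat1 it was 11.9% and 10.7% against 28.2% and 27.2% (22.8%, 23.7%, 61.6% and 54.8% before), and for Gramd3 10.4% and 13.2% against 27.6% and 28.6% (20%, 24.4%, 59.2% and 51.6% before). Il21r went from 7.04% and 5.94% to 15.5% and 16.2%, against 14.2%, 13.9%, 41.3% and 36.4% before thinning. Il7r was in 35.5% and 30.7% of thinned cells in WT and in 40.5% and 41.6% in KO tumours (46.3%, 44.9%, 65.9% and 62.5% before). Gpcpd1 stayed rare, at 3.83% and 2.55% against 5.55% and 6.05% (6.51%, 5.94%, 19.0% and 18.2% before).

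The same shares in thinned Xist-low cells, which have no lymphocyte identity, are given beside these. Their median depth was 12293 and 12617 UMIs in WT and 40901.5 and 32508 in KO tumours before thinning, so free RNA can take a smaller part of their UMIs than of T and NK cells, and the shares are not a measure of the background there. Il7r was found in 0.0931% to 0.805% of them, Rora in 0.0620% to 0.241%, and Dennd4a in 0.806% to 2.01%. Kdm6b was found in 3.54% to 9.81% and Kdm2b in 1.45% to 2.24%, so the thinned share of T and NK cells was above that of Xist-low cells of the same tumour for these genes. The shares of Dgat1 (0.946% to 1.69%), Gramd3 (0.320% to 0.644%) and Gpcpd1 (0.400% to 0.563%) were also below those in T and NK cells, and Il21r was in 0 of 2503 cells in KO tumour 2, which allows up to 0.120% of cells with a UMI at this depth and sets no limit on cells that express it (90 UMIs before thinning).

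**Figure D3:**
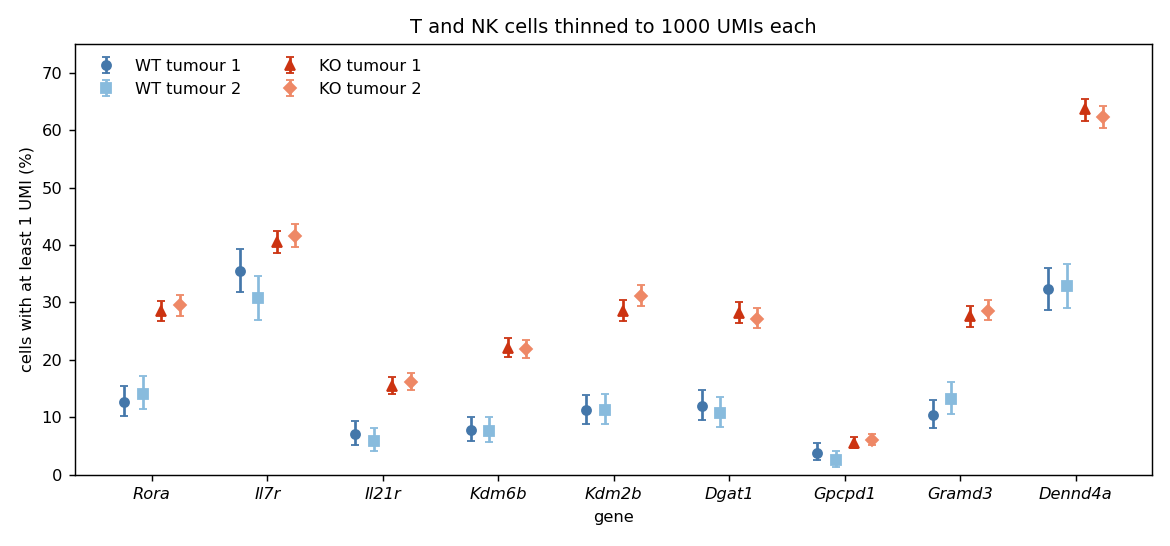
Share of T and NK cells (percent) with at least 1 UMI of each gene at 1000 UMIs per cell, with 1 point per tumour and 95% exact binomial intervals that cover counting error only. KO tumours lie above WT tumours for each gene, and Dennd4a reached 63.6% and 62.3% in KO tumours.

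The members were then counted per cell. At 1000 UMIs, 12.1% of T and NK cells in each WT tumour held 3 or more of the 9 members, against 50.4% and 51.3% in the KO tumours. Cells with none of them made up 23.3% and 26.0% in WT and 5.63% and 4.97% in KO tumours. The mean number of member UMIs per thinned cell was 1.89 and 1.73 in WT and 4.2 and 4.3 in KO tumours.

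The share with 3 or more members was 13.7% and 20.9% in WT and 79.8% and 76.6% in KO gamma-delta T cells, the highest of the subsets. It was 10.4% and 9.29% against 47.9% and 47.0% in CD8 T cells, 22.0% and 20.2% against 66.2% and 65.5% in CD4 T cells, and 14.2% and 11.1% against 43.7% and 46.7% in regulatory T cells. In NK cells it was 6.41% and 5.13% against 31.0% and 32.0%. In mononuclear phagocytes it was 0.977% and 0.928% against 5.68% and 3.17%, and in Xist-low cells at most 0.0400%.

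**Figure D4:**
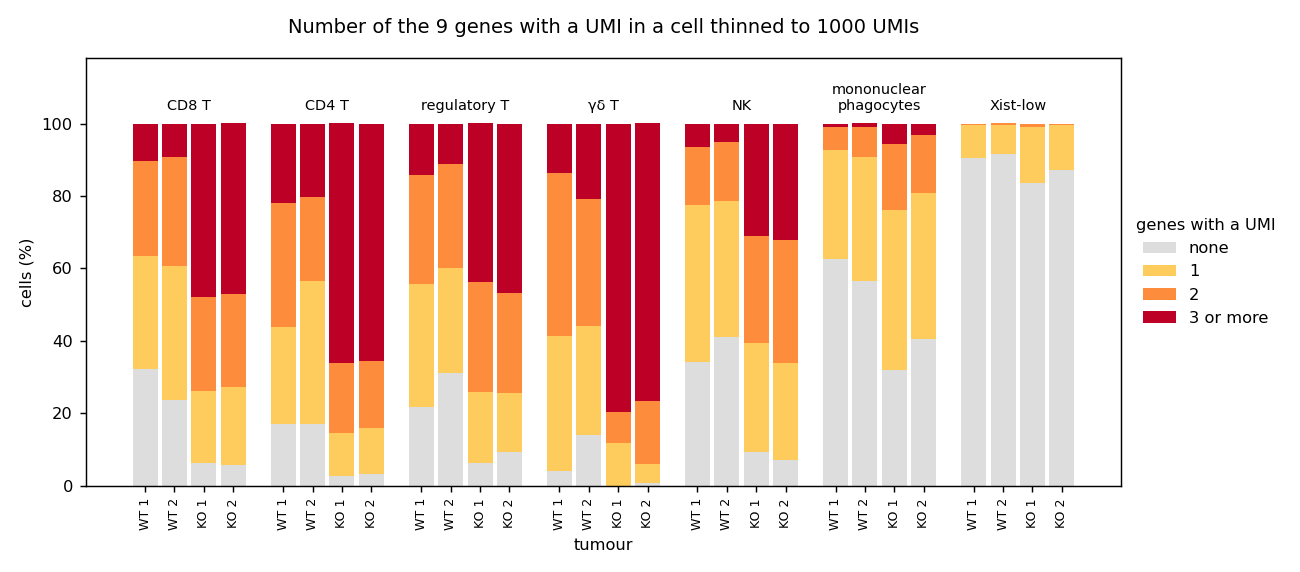
Share of cells (percent, bars stacked to 100) with none, 1, 2, or 3 or more of the 9 genes at 1000 UMIs per cell, with 1 bar per tumour for 5 subsets, mononuclear phagocytes and Xist-low cells. In gamma-delta T cells 3 or more were found in 13.7% and 20.9% of WT cells and 79.8% and 76.6% of KO cells.

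The 5 subsets were then averaged with equal weight in each tumour, which sets aside shifts between these subsets only. Differences in make-up inside a subset remain, and the unnamed cells are left out. The log2 ratio of KO to WT means was 1.36 for Rora, 0.56 for Il7r, 1.72 for Kdm6b, 1.75 for Kdm2b, 1.60 for Dennd4a, 1.31 for Il21r, 1.37 for Dgat1, 1.72 for Gramd3 and 1.11 for Gpcpd1. These values are a description with no test.

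Outside T and NK cells, the members moved partly. In Xist-low cells 4 of the 9 rose in KO tumours, beside 4.46% of 18007 genes that rose and 8.82% called in all. Kdm6b was at 41.8 and 37.4 CPM in WT and 93.5 and 75.6 CPM in KO tumours, a log2 fold change of 1.03 (SE 0.12, edgeR adjusted p = 0.0114), and passed under each of 12 alternatives. Dennd4a rose from 8.83 and 9.12 CPM to 21.1 and 18.2 CPM (log2 fold change 1.07, adjusted p = 0.0102, and 0.87 with adjusted p = 0.0623 at 1000 UMIs per cell).

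Il7r rose from 1.57 and 0.964 CPM to 7.88 and 4.35 CPM (2.19, adjusted p = 0.0223), a call that ended at 2000 UMIs per cell (1.26, adjusted p = 0.194). Il21r rose from 0.5 and 0.294 CPM (57 and 28 UMIs) to 1.84 and 1.06 CPM (97 and 90 UMIs), with a log2 fold change of 1.78 and adjusted p = 0.0428. That call was lost without KO tumour 1 (1.41, adjusted p = 0.171) or KO tumour 2 (2.09, adjusted p = 0.0702). Rora (1.01, adjusted p = 0.0669), Dgat1 (0.44, 0.0764), Gramd3 (0.46, 0.162), Kdm2b (0.11, 0.528) and Gpcpd1 (0.12, 0.705) did not pass, and Gpcpd1 overlapped between groups. Both KO tumours were above both WT tumours for 33.5% of all genes in this class.

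T cell markers in Xist-low cells also differed, at 9.89 and 4.62 CPM in WT and 31.5 and 23.3 CPM in KO tumours over 11 genes, 6 of which rose. Cd3e, the T cell receptor subunit, was at 0.754 and 0.210 against 2.79 and 1.90 CPM, and Ptprc at 4.95 and 2.64 against 13.1 and 8.50 CPM. Mononuclear phagocyte markers were at 267 and 110 against 389 and 312 CPM. The part of these in the rise of Il7r, Il21r and Dennd4a was not tested.

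Different clusters hold most Xist-low cells in the groups, since that led by Gja4 and Nppb held 6.95% and 13.3% in WT and 90% and 89.4% in KO tumours. Within that cluster Kdm6b was at 38.2 and 39.3 CPM in WT and 95.8 and 77.3 CPM in KO tumours, Dennd4a at 9.24 and 10.8 against 21.4 and 18.7 CPM, and Il7r at 1.35 and 1.10 against 7.88 and 4.32 CPM. Kdm2b overlapped there, at 24.5 and 24.9 against 25.2 and 24.5 CPM.

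In mononuclear phagocytes no member passed, and 0 of 13387 genes did by edgeR, 2327 at an unadjusted p under 0.05 and 454 by DESeq2. Dgat1 was at 25.1 and 23.1 CPM in WT and 73.8 and 60.8 CPM in KO tumours, a log2 fold change of 1.53 (adjusted p = 0.0705), and passed in 10 of 13 alternatives, including 1000 UMIs per cell (1.46, adjusted p = 0.0409). Dennd4a was at 127 and 99.4 against 273 and 211 CPM (1.15, adjusted p = 0.0849), and passed in 6 of 13. Il7r was at 138 and 225 against 538 and 358 CPM (1.34, adjusted p = 0.126), and passed in 4 of 13.

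The other members there had log2 fold changes from 0.13 for Kdm2b (adjusted p = 0.766) to 0.92 for Gpcpd1 (adjusted p = 0.141), with overlap between groups for Kdm2b and Gramd3, beside 22.5% of genes with both KO tumours above. The class was made up differently in the groups: the cluster led by Ly6i, Nos2 and Arg1 held 16.7% and 27.7% of it in WT and 58.3% and 53.0% in KO tumours. Within that cluster Dgat1 was at 42.6 and 34.5 CPM in WT and 72.3 and 67.9 CPM in KO tumours, and Kdm6b overlapped. In the cluster led by Pf4, Ccl12 and Mmp12 Dgat1 was at 22.2 and 19.6 against 47.2 and 34.1 CPM, and Il7r and Dennd4a overlapped.

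In dendritic cells 2 of 8 members tested rose, beside 0.742% of 6469 genes that rose and 1.17% called. Dgat1 rose from 32.8 and 35.8 CPM (17 and 7 UMIs) to 114 and 114 CPM (117 and 82 UMIs), with a log2 fold change of 1.77 and adjusted p = 0.0126. Dennd4a rose from 270.2 and 297 CPM to 673 and 593 CPM (1.18, adjusted p = 0.0248). At 1000 UMIs per cell 0 of 2218 genes passed by edgeR (293 at an unadjusted p under 0.05). The log2 fold change was then 1.36 for Dennd4a (adjusted p = 0.124), no smaller than before thinning, and 1.12 for Dgat1 (adjusted p = 0.352).

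The Dennd4a call was lost without KO tumour 1 (1.12, adjusted p = 0.193) or KO tumour 2 (1.27, adjusted p = 0.0585), and that of Dgat1 with DESeq2 (adjusted p = 0.108). Both ended with free RNA subtracted, at 1.02 for Dennd4a (adjusted p = 0.14) and 1.62 for Dgat1 (adjusted p = 0.0586). Kdm6b (1.02, adjusted p = 0.0705), Il21r (0.97, 0.132), Kdm2b (0.80, 0.343), Gpcpd1 (0.74, 0.241), Il7r (0.12, 0.897) and Gramd3 (-0.07, 0.963) did not pass. T cell markers summed to 29.0 and 15.4 CPM in WT and 62.2 and 87.3 CPM in KO dendritic cells, and neutrophil markers to 232 and 435 against 709.8 and 763 CPM, of which 1 of 3 rose. B cell markers summed to 88.8 and 604 against 10.7 and 8.31 CPM, and the 1 tested fell. Their part was not tested.

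In neutrophils, with 49 cells in WT tumour 1, 4 members could be tested and 0 of 4771 genes passed by edgeR (658 at an unadjusted p under 0.05, 0 by DESeq2). Dennd4a was at 427 and 329.7 CPM in WT and 941 and 1117 CPM in KO tumours (1.49, adjusted p = 0.0684). All but Gpcpd1 of these 4 were above both WT tumours in both KO tumours, as were 29.3% of all genes tested. Gpcpd1 was lower in both KO tumours, at 167 and 162 against 129 and 139 CPM (-0.34, adjusted p = 0.698). In fibroblasts and mural cells 0 of 11745 genes passed by edgeR (679 at an unadjusted p under 0.05, 72 by DESeq2). Kdm6b was at 49.0 and 41.1 CPM in WT and 223 and 152 CPM in KO tumours there (2.05, adjusted p = 0.530), and Rora at 87.6 and 102 against 86.4 and 89.7 CPM (-0.11, adjusted p = 0.984). In simulated counts the edgeR test found 82.1% of genes changed by 2-fold in T and NK cells and 97% in Xist-low cells. It found 47.8% in mononuclear phagocytes, 25.4% in dendritic cells, 4.50% in neutrophils and 1.5% in fibroblasts and mural cells. The last classes could thus show little. Each share is over the genes drawn to be changed, not over all genes tested in a class. Whether the drawn genes match the class in level and spread was not tested, so the shares may be too high for it. Recovery at the members' own levels was not tested either. In WT Xist-low cells Rora was at 0.789 and 0.650 CPM, Gramd3 at 3.93 and 4.86 CPM and Gpcpd1 at 4.42 and 5.0 CPM. The 97% therefore does not show how often a 2-fold change of these members would be found.

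**Figure D5:**
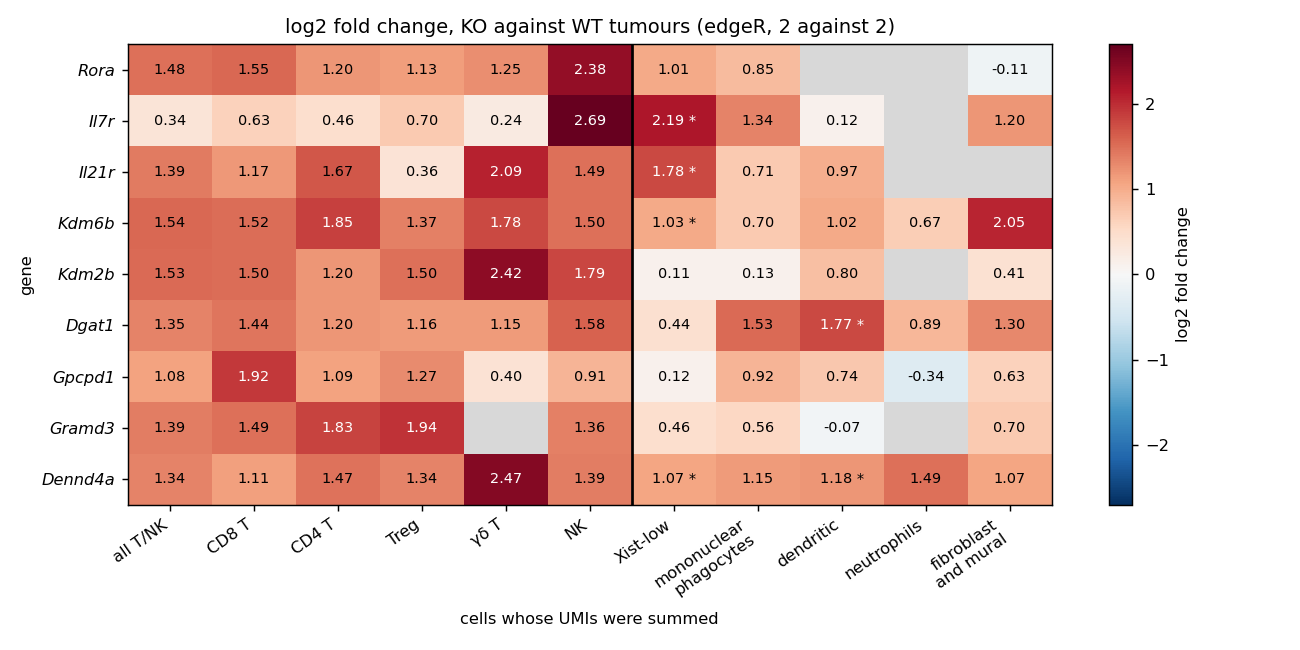
Log2 fold change (KO minus WT) of each member in T and NK cells, their subsets and the other classes, as colour and number, with grey where a gene was not tested. An asterisk marks an edgeR adjusted p under 0.05 and is given for the other classes only, where it stands for 4 members in Xist-low cells and 2 in dendritic cells.

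The genes around the members in their pathways changed in part. Lists leave out the members, and counts are of the genes tested in T and NK cells, where 1.75% of all genes rose and 1.33% fell by edgeR. Of 17 common gamma chain receptor and JAK-STAT genes 2 rose (median log2 fold change 0.40). Stat3, which transduces cytokine signals, rose from 246 and 250.1 CPM to 539 and 565 CPM (1.06, adjusted p = 0.0160), and Il4ra, the IL-4 receptor chain, from 77.5 and 69.7 to 158 and 161 CPM (1.03, adjusted p = 0.0152). In NK cells, where 3.84% of all genes rose and 7.20% were called, 3 of 16 rose, Stat3 (1.34, adjusted p = 2.47e-05), Il4ra (1.26, adjusted p = 0.000415) and Il2ra (0.98, adjusted p = 0.0449).

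Of the chromatin genes, 1 of 20 lysine demethylases rose, Kdm7a (0.78, adjusted p = 0.0425, list median 0.10), and 0 of 19 Polycomb subunits passed in either direction (median 0.13). In NK cells Kdm7a and Jmjd1c rose among 19 demethylases, and 0 of 15 Polycomb subunits passed. In Xist-low cells, where 4.36% of all genes fell, 4 of 20 demethylases fell, among them Kdm4b (-0.97, adjusted p = 0.0191), and 2 of 19 Polycomb subunits fell, Ezh1 (-1.05, adjusted p = 0.0102) and Cbx2 (-0.56, adjusted p = 0.0396). Kdm6b rose in those same cells.

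Of 21 nuclear receptors 1 rose in T and NK cells, Nr4a3, an early gene of antigen receptor signalling, from 77.5 and 108 CPM to 321 and 312 CPM (1.67, adjusted p = 0.0115, list median 0.19). It also rose in NK cells (1.75, adjusted p = 7.72e-06) and in dendritic cells (1.20, adjusted p = 0.0240). Of 15 clock genes tied to RORalpha 2 rose, the repressor Bhlhe40 (0.90, adjusted p = 0.0214) and Per1 (1.16, adjusted p = 0.0376), with a median of 0.40. Both also rose in NK cells.

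The lipid and membrane families around Dgat1, Gpcpd1, Gramd3 and Dennd4a had no gene past the threshold in T and NK cells: 0 of 20 triglyceride genes (median 0.04), 0 of 14 glycerophosphodiester and choline genes (0.10), 0 of 7 GRAM domain genes (0.09) and 0 of 14 DENN domain genes (0.39). NK cells, with 3.84% of all genes rising, had 1 of 16, 2 of 13, 1 of 5 and 1 of 12 rising, respectively Hilpda, Pcyt1a and Pnpla7, Gramd1a and Avl9. Of 19 memory and residency factors 4 rose and 1 fell (median 0.30). The repressor Bcl6 rose from 9.76 and 6.12 CPM to 32.6 and 37.8 CPM (2.06, adjusted p = 0.0111), with Foxo1 (0.98), Bhlhe40 and Prdm1 (0.70), and Itgae, the integrin of tissue-resident cells, fell (-1.09, adjusted p = 0.0446).

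Of 26 activation-induced genes 3 rose, Nr4a3, Crem (1.12, adjusted p = 0.0169) and Rel (1.10, adjusted p = 0.0231), and Fos fell (-1.08, adjusted p = 0.0141). The list's median was 0.11. In NK cells 9 of 25 rose (3.84% of all genes), led by Nr4a3, Fosl2 (1.36, adjusted p = 8.05e-05) and Zfp36l1 (0.93, adjusted p = 0.00120). A list of RNA quality joined RNAs retained in the nucleus with mitochondrial transcripts, which were most of it. Its median was 0.36 in T and NK cells, with 0 of 13 past the threshold. In NK cells 3 of 12 rose, Kcnq1ot1, Neat1 and Xist, none of them mitochondrial. Their part in the members' levels was not tested.

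Over 40 sums (classes and subsets by tumour), the genes most like the mean profile of the 9 members were ranked by Pearson's r among the 8927 genes that averaged 10 CPM or more. The T and NK class as a whole was not among the sums. Sums of the same tumour share a library, so r is a description. Stat3 came first (0.931), followed by Akap13 (0.927), Gm44694 (0.919), Nabp1 (0.917), Gm37033 (0.912), Itpkb (0.910), Satb1 (0.908), Isy1 (0.907), Arhgap15 (0.906) and Gm38062 (0.904). Each member against the mean of the other 8 ranged from 0.565 for Gpcpd1 and 0.591 for Kdm6b to 0.867 for Dgat1.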

How the data were processed

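The deposited files hold whole-number UMI counts per gene and barcode, not normalized by the authors. The genome was mm10 and the aligner Cell Ranger 5.0.1 per the labels' protocols, but version 6.1.2 per the file headers. Seurat 5.1.0 is named, without its role, per the submitters' processing notes. All 55450 feature identifiers were found in GENCODE vM21 (GRCm38). The members and gene lists were chosen with earlier results of these data known.

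Barcodes needed at least 300 genes, 500 UMIs and no more than 20% mitochondrial UMIs. The highest Scrublet scores were removed as doublets at 0.8% per 1000 barcodes (1288, 1043, 715 and 728 cells) after clustering, since Scrublet's own threshold marked 0%, 0.0089%, 3.82% and 4.52%. Clustering was done over all 4 libraries jointly, with no integration, in scanpy 1.11.5 (2000 variable genes, 30 components, 15 neighbours, Leiden resolution 1.0), and T and NK cells again alone. A marker counted in a cluster when at least 10% of cells held it at 2 times the mean of other cells, and 3 markers gave a name. Xist-low cells are clusters with a mean under 1 Xist and under 1 Ptprc UMI per 10000. That rule, the joining of fibroblast with mural cells, the naming of sub-clusters and the limit of 0.1 for genes of free RNA were set after the data were seen. Genes of free RNA had at least 100 CPM in Xist-low cells and at most 0.1 of that level in the immune classes, both in the KO tumours only.

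The counts of each class were summed within a tumour and tested with edgeR 4.0.16 (glmQLFit, glmQLFTest, TMM, filterByExpr) in R 4.3.3, two-sided, with Benjamini-Hochberg adjustment over all genes tested in a class and a threshold of 0.05. CPM values are UMIs per 1000000 of the sum, without TMM. Differences of the KO effect between subsets were tested as an interaction, with tumour as a block. Recovery was tested on simulated data, 200 genes being changed. With 2 tumours a group, the smallest exact permutation p is 0.333. Named genes are all 9 members, at most 5 called genes of each list by smallest p, and the 10 genes most like the members' profile. Alternatives were no TMM factors, no filter on low counts, DESeq2 1.42.0, a replicate block, each tumour left out, doublets kept, at most 10% mitochondrial UMIs, 1000 or 2000 UMIs per cell, and Leiden resolution 2.0. Added after seeing the data were free RNA subtracted, sub-clusters left out, and NK cells without the group led by Kit.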

Additional observations from a re-analysis of the deposited data

Results flagged for a closer look

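The effect of the KO on Il7r differed between subsets by the edgeR interaction test. The difference was -1.97 on the log2 scale for CD8 T minus NK cells (adjusted p = 9.09e-06) and -2.23 for CD4 T minus NK cells (adjusted p = 1.00e-06). Both lost their call without the NK group led by Kit and Klrb1b (-1.36, adjusted p = 0.198, and -1.56, adjusted p = 0.120). A lost call does not show equal effects, since in simulated counts the CD8 T minus NK test found 48.5% of 3-fold differences. Gpcpd1 ran the other way in neutrophils, where both KO tumours were below both WT tumours (log2 ratio of the mean levels -0.30). It did not pass there, WT tumour 1 gave 9 UMIs, and the share of all genes so placed was not counted. In T and NK cells both KO tumours had the higher values of Gpcpd1. That difference between classes was not tested.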

How the results depend on the processing

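In T and NK cells all 153 alternative values of the 9 members were positive. Over T and NK cells and subsets together, 763 of 764 were, the exception being Il21r in regulatory T cells at 2000 UMIs per cell (-0.13). Counts of called genes moved more. In T and NK cells, 387 genes were called, against 1392 with no filter on low counts, 655 with doublets kept, 215 at 2000 UMIs per cell, 229 over named subsets alone, 192 without the sub-cluster led by Sox9, 125 with free RNA subtracted, and 224 to 1915 with 1 tumour left out, most without WT tumour 2. In Xist-low cells the 1589 calls became 3780 with no filter, 2725 with DESeq2, 943 at 1000 UMIs per cell and 252 to 2383 with 1 tumour left out. Mononuclear phagocytes went from 0 to 1278 with no filter, 454 with DESeq2, 95 with doublets kept, 64 at 1000 UMIs, 33 at 2000 and 117 to 1321 with 1 tumour left out. Neutrophils went from 0 to 18 with no filter, 0 with DESeq2, 32 with doublets kept, 2 at 1000 UMIs and 1 to 246 with 1 tumour left out, and fibroblasts and mural cells to 322 with no filter, 72 with DESeq2 and 0 to 15 with 1 tumour left out. Dendritic cells went from 76 to 237 with no filter, 17 with DESeq2, 46 with doublets kept, 0 at 1000 UMIs, 13 with free RNA subtracted and 26 to 491 with 1 tumour left out. In NK cells, 616 genes were called, against 145 with DESeq2, 183 at 2000 UMIs, 203 at 1000 UMIs, 224 with free RNA subtracted and 155 to 635 with 1 tumour left out. The cause was not tested.

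The labels number tumours 1 and 2 in each group without saying what a number shares, and 2 pairs do not show pairing. With the number as a replicate block, 955 genes were called in T and NK cells, 2180 in Xist-low cells, 44 in mononuclear phagocytes, 55 in neutrophils, 0 in fibroblasts and mural cells and 127 in dendritic cells.

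In other classes 17 of 460 values changed sign, none of them past the threshold. In Xist-low cells at 1000 UMIs these were Kdm2b (-0.17), Gramd3 (-0.34) and Gpcpd1 (-0.13, and -0.27 at 2000). In mononuclear phagocytes they were Kdm2b at -0.014 without KO tumour 1, -0.11 at 1000 UMIs and -0.031 with free RNA subtracted. In fibroblasts and mural cells Rora was at 0.021 without WT tumour 2 and 0.021 with doublets kept. In dendritic cells Il7r was at -0.032 and -0.030 without WT tumour 1 and KO tumour 1 (up to 0.27 without WT tumour 2), -0.10 and -0.14 at 1000 and 2000 UMIs, and -0.057 with free RNA subtracted, and Gramd3 at 0.043 with no filter, 0.10 without WT tumour 1 and 0.18 without KO tumour 2 (down to -0.35 without KO tumour 1).

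Of 190 interaction values 16 changed sign. For CD4 T minus NK they were Dgat1 (0.14) and Gpcpd1 (-0.26) without WT tumour 2, and Il21r without TMM factors (-0.045), WT tumour 1 (-0.0015) or KO tumour 1 (-0.12). For CD8 T minus CD4 T they were Dgat1 (-0.23), Il21r (0.25) and Kdm2b (-0.023) without WT tumour 2, Kdm2b (-0.054) and Il7r (-0.049) at 1000 UMIs, and Il7r without WT tumour 1 (-0.30) and at Leiden resolution 2.0 (-0.014). For CD8 T minus NK they were Dgat1 (0.040) and Il21r (0.11) at 1000 UMIs, Il21r without WT tumour 2 (0.47) and Kdm6b without WT tumour 1 (-0.14). With 1 tumour left out, the ranges of these were -0.46 to 0.14 (Dgat1), -0.26 to 0.76 (Gpcpd1) and -0.12 to 0.29 (Il21r) for CD4 T minus NK, -0.23 to 0.36 (Dgat1), -1.20 to 0.25 (Il21r), -0.30 to 0.74 (Il7r) and -0.023 to 0.33 (Kdm2b) for CD8 T minus CD4 T, and -1.24 to 0.47 (Il21r) for CD8 T minus NK. The 2 interactions of Il7r that lost their call without the group led by Kit were at -1.56 (CD4 T minus NK) and -1.36 (CD8 T minus NK). Few UMIs lay behind Gpcpd1 in CD8 T (4 and 8 in WT) and gamma-delta T cells (5 and 6), and behind Il21r in gamma-delta T cells (2 in each WT tumour).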
